A study of Rattus norvegicus with 4 samples.

Results

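The 45 genes described here drive DNA replication and cell division in the small intestine of 4 male Wistar rats. They were chosen by name from a list of 53 gene symbols, and a gene entered when the scanner software had marked a probe of that name as well above background on 2 or more of the 4 arrays. The arrays gave 24312 genes or unnamed transcripts under the same filter. Of the 45 genes, 21 act mainly in S phase, when DNA is copied, and 21 mainly in mitosis. The other 3, Ccnd1, Cdk2 and Ccna2, act in both or in earlier phases. Of the 8 names without a probe, Cdc2 and Cdk1 are other names of Cdc2a, which was measured and is called Cdk1 below. The remaining 6 were Mki67, Aurka, Mcm3, Cdt1, Cenpa and Hells.

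The control group was 2 rats that drank tap water alone, and the compost group was 2 rats whose tap water contained compost extract at 1% by volume. All 4 were given their water without restriction from 3 weeks of age for 12 weeks. The extract was a heated aqueous dilution of a compost sold as fertilizer and animal feed, in which the labels report few nutrients and culturable thermophilic bacteria. The tissue was small intestine without Peyer's patches, the lymphoid follicles of the gut wall, and the labels name no segment. Each rat gave RNA to 1 single-colour Agilent array. Levels below are log2 intensities relative to the 75th percentile of the array, which is at 0, and every difference is compost minus control. As far as the scan names show, all arrays lay on the same slide in the same scan. The same names place the controls at the first positions and the compost rats at the last. The place on the slide and the group therefore cannot be told apart. The share of gene spots above background ran from 66.5% to 71.0%.

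Cells that enter the cycle first load the MCM helicase onto replication origins, with Cdc6 and Cdt1 as loaders and geminin (Gmnn) as the brake. E2F transcription factors switch on these genes and those of the replication fork and nucleotide supply. Mitotic genes follow later, and their promoters typically carry CCAAT boxes bound by NF-Y next to a cell cycle homology region (CHR) bound by the DREAM and MuvB complexes. In the small intestine, dividing cells lie in the crypts, whereas the absorptive enterocytes of the villi have left the cycle. Germinal centres of lymphoid follicles are another site of rapid division. In whole tissue, fewer cells of a type and less RNA per cell cannot be told apart.

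Regulatory motifs of the 2 classes are shown in 150 bases upstream of the annotated start. The examples are 3 S phase genes and 3 mitotic genes that carry these motifs and whose measurements are given below. Not all genes of a class carry them. Sequences are from the RefSeq promoter table of the GRCr8 assembly, on the strand of the gene, 5′ to 3′. Capitals mark an E2F motif (TTCCCGC or TTGGCGC), a CHR (TTTGAA or TTTAAA) or an NF-Y box (CCAAT), each on either strand. The reverse complement of TTGGCGC ends in CCAA and can therefore overlap an NF-Y box, as it does in Mcm7. The upstream windows are chr9:120776084-120776233 for Tyms, chr13:42404353-42404502 for Mcm6, chr12:22163179-22163328 for Mcm7, chr5:137255800-137255949 for Cdc20 and chr2:33655226-33655375 for Ccnb1, all on the minus strand, and chr20:19265143-19265292 for Cdk1 on the plus strand.
Tyms: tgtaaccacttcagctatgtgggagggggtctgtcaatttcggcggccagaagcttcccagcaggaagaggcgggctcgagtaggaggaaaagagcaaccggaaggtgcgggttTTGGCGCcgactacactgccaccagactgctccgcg
Mcm6: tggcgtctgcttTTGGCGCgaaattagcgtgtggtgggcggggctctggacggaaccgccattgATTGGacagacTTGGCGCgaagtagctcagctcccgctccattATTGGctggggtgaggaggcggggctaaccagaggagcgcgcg
Mcm7: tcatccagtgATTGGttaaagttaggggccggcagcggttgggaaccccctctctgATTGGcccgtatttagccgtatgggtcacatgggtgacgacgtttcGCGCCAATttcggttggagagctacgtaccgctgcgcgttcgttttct
Cdk1: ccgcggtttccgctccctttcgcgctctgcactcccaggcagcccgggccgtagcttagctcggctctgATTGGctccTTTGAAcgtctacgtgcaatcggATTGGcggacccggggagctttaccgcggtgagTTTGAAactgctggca
Cdc20: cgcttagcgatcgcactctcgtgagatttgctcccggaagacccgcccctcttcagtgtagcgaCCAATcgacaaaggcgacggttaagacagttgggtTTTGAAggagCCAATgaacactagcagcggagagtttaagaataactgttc
Ccnb1: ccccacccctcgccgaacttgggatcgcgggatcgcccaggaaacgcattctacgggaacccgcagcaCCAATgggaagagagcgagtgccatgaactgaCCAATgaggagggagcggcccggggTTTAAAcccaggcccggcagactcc

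The 3 S phase windows held an E2F motif and no CHR. In Tyms the E2F motif began 36 bases upstream of the start, and in Mcm6 there were 2, at 75 and 138 bases, with 2 NF-Y boxes. The 3 mitotic windows held a CHR, at 51 bases in Cdc20, at 25 bases in Ccnb1, and at 16 and 72 bases in Cdk1, and each also held 2 NF-Y boxes. Over the whole 300-base windows of the table, 250 bases before to 50 after the start, 34 of the 45 genes could be matched. An E2F motif was present in 9 of 16 S phase promoters (56.3%) and in 1 of 17 mitotic promoters (5.88%), that of Cdk1, against 6.26% of all 33469 promoters. A CHR was present in 3 of 16 S phase promoters and in 15 of 17 mitotic promoters (88.2%), against 28.3% of all. Both a CHR and an NF-Y box were present in 13 of 17 mitotic promoters (76.5%), in 1 of 16 S phase promoters and in 11.3% of all. These are letter matches and not measured binding.

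**Figure D1:**
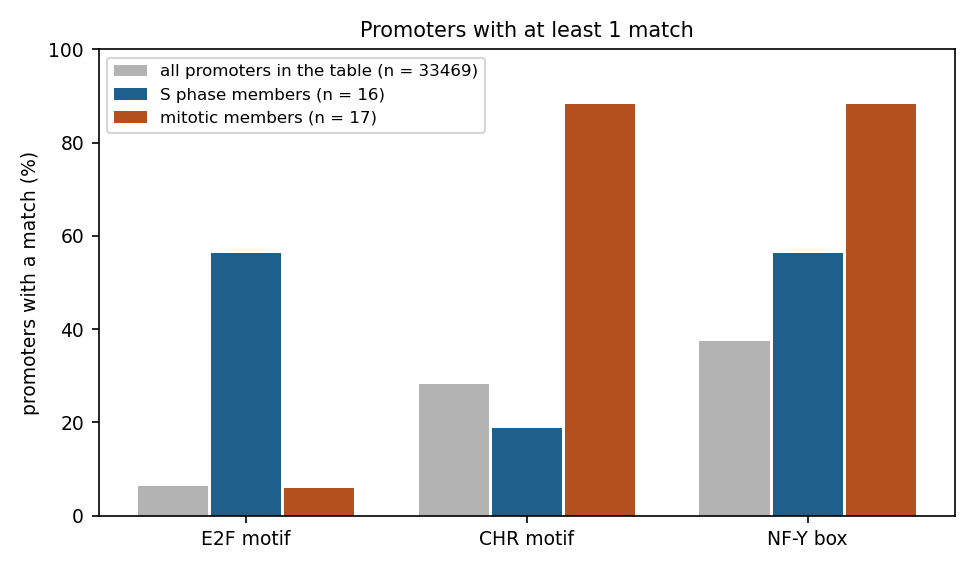
Share of promoters (%) with at least 1 match to the E2F motif, the CHR motif or the NF-Y box in 300 bases, for all 33469 promoters of the table, the 16 matched S phase members and the 17 matched mitotic members. The E2F motif was most frequent in S phase promoters (56.3%) and the CHR in mitotic promoters (88.2%).

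Most of the 45 genes were slightly higher in the compost rats, and none passed the test. In limma's fit over all 28417 probes, 0 probes had an adjusted p under 0.05 in either direction (0% called), and 913 probes (3.21%) had an unadjusted p under 0.05, none of them a probe of these genes. The mean of the compost rats was above that of the controls for 38 of the 45 genes, against 46.5% of all genes. The median difference was 0.18 log2 units, a fold of 1.14, against -0.02 for all genes. Standard errors ranged from 0.17 to 0.32 with a median of 0.21, so the typical difference was no larger than its error. The lowest unadjusted p was 0.0707 and every adjusted p was 1.00. With 2 rats against 2, an exact two-sided permutation test of a single gene cannot give a p below 0.333.

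Both compost arrays lay above both control arrays for 18 of the 45 genes, against 12.7% of all genes, and below both for 1 gene, Cenpf, against 15.2%. The control arrays differed from each other as much as the groups did. Control rat 1 had the lowest value of the 4 for 36 of the 45 genes and the highest for none. Relative to each gene's mean over the arrays, the median of the 45 genes was -0.19 in control rat 1, 0.06 in control rat 2, 0.09 in compost rat 1 and 0.08 in compost rat 2. Without control rat 1, 24 of the 45 genes were higher in compost, with a median of 0.04, against 43.8% of all genes.

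**Figure D2:**
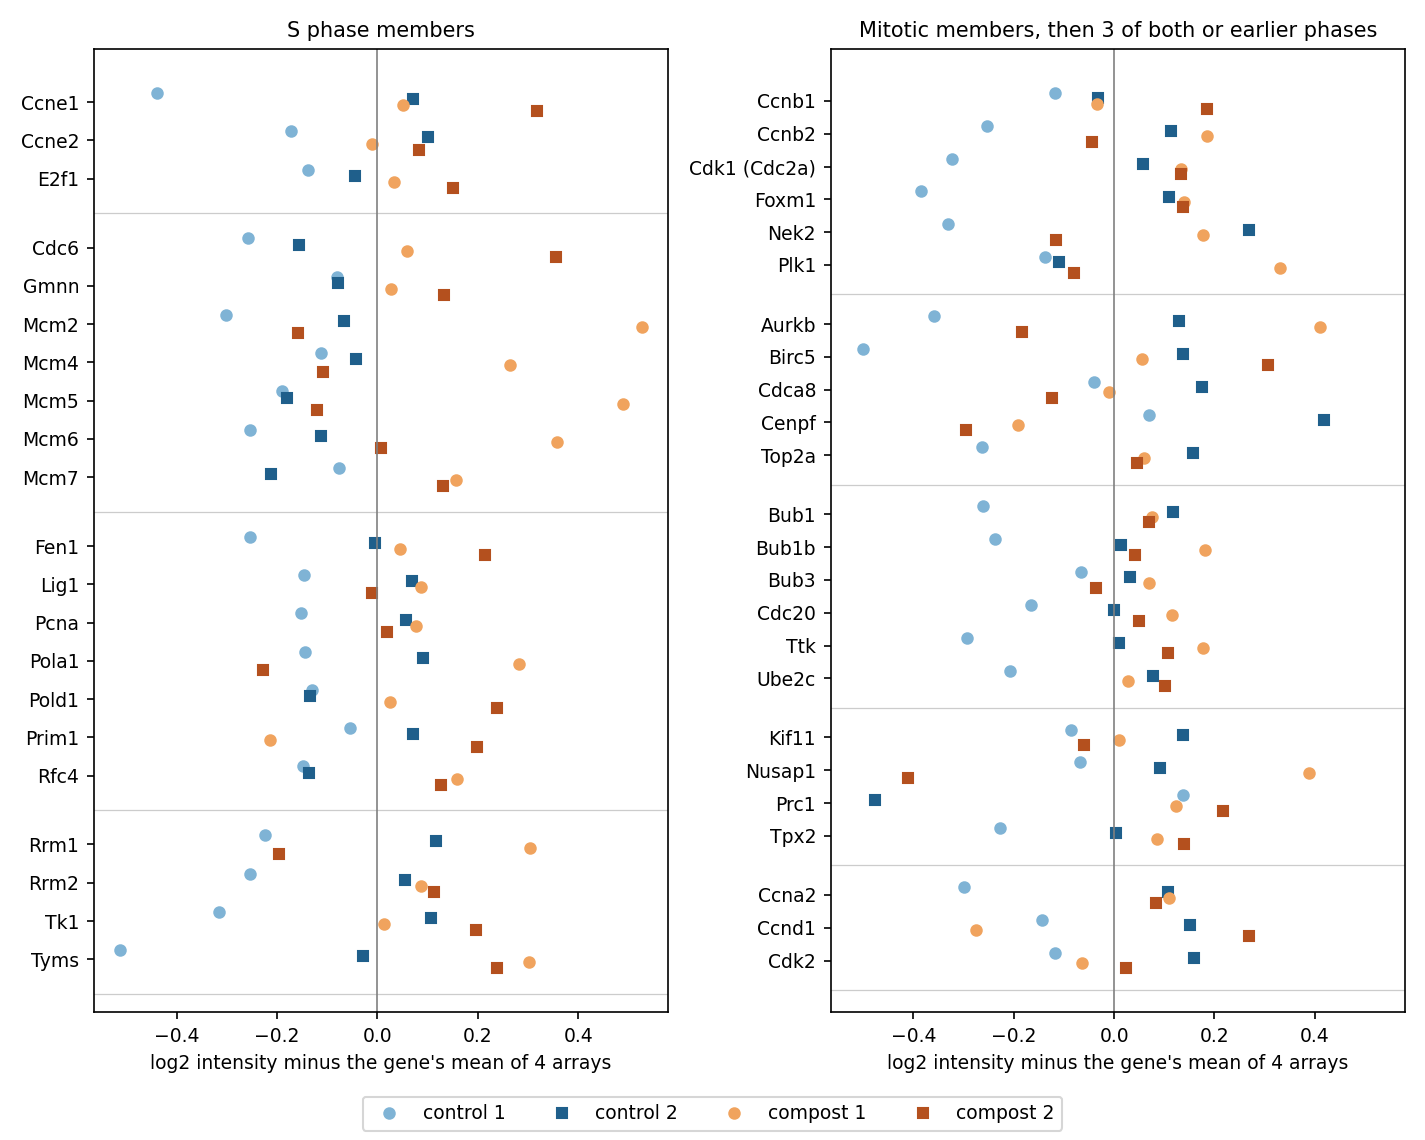
Log2 intensity of each of the 45 genes on each array, minus the gene's mean of the 4 arrays (horizontal axis), with circles for rat 1 and squares for rat 2 of a group; points of a gene are offset vertically so that all 4 can be seen, and grey lines part the roles in the order of the text. Light blue circles, control rat 1, are leftmost for 36 of the 45 genes.

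Among the G1/S regulators, all 3 genes had a higher compost mean. E2f1, the transcription factor named for this switch, was 0.89 and 0.98 in the controls and 1.06 and 1.18 in the compost rats, a difference of 0.18 ± 0.18 (SE, n = 2 per group). Its 4 values did not overlap between groups. Cyclin E1 (Ccne1), the partner of Cdk2 at S phase entry, differed by 0.37 ± 0.26 and cyclin E2 (Ccne2) by 0.07 ± 0.20, both with overlapping groups.

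Origin licensing genes had a median of 0.37, and all 7 had a higher compost mean. In 5 of the 7 both compost rats lay above both controls, against 12.7% of all genes. Cdc6, which loads the helicase, was -1.93 and -1.83 in the controls and -1.61 and -1.31 in the compost rats, a difference of 0.41 ± 0.20 with an unadjusted p of 0.0974. The helicase subunit Mcm6 was 0.91 and 1.05 in the controls and 1.52 and 1.17 in the compost rats, a difference of 0.37 ± 0.21. Both compost values of Mcm6 were above both controls, and the higher was compost rat 1. The subunit Mcm7 was 1.08 and 0.95 in the controls and 1.31 and 1.29 in the compost rats, a difference of 0.29 ± 0.18. In Mcm7 both compost rats were above the higher control, and here control rat 2 was the lower control.

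Other subunits of the same helicase were less even between the compost rats. Mcm2 was 0.02 and 0.26 in the controls and 0.85 and 0.17 in the compost rats, a difference of 0.37 ± 0.29. Only compost rat 1 was high for Mcm2, and compost rat 2 lay between the controls. Mcm5 was -1.28 and -1.27 in the controls and -0.60 and -1.21 in the compost rats, so its difference of 0.37 ± 0.26 also came mostly from compost rat 1 and was 0.07 without that rat. Mcm4 differed by 0.15 ± 0.21, and by -0.03 without compost rat 1. Geminin differed by 0.16 ± 0.18, with both compost rats above both controls. Without control rat 1 the compost mean was still higher for 7 of the 7 licensing genes, with a median of 0.29, and without compost rat 1 for 6 of the 7, with a median of 0.19.

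At the replication fork, 6 of 7 genes had a higher compost mean, with a median of 0.10. The clamp loader subunit Rfc4 was 0.91 and 0.92 in the controls and 1.22 and 1.18 in the compost rats, a difference of 0.28 ± 0.17 with an unadjusted p of 0.164. The control rats were nearly equal for Rfc4, so leaving out either of them left the difference between 0.28 and 0.29. Pcna, the sliding clamp and a common proliferation marker, was 3.19 and 3.40 in the controls and 3.42 and 3.36 in the compost rats, a difference of 0.10 ± 0.19. Only control rat 1 was low for this Pcna probe, and without that rat its difference was -0.01. The other Pcna probe was 0.86 and 0.97 in the controls and 1.30 and 0.89 in the compost rats. Its difference was 0.18 ± 0.22, and there compost rat 1 was the high array. The flap nuclease Fen1 and the catalytic subunit of polymerase delta, Pold1, each differed by 0.26 with an SE of 0.20 and 0.19, and their groups did not overlap. The ligase Lig1 differed by 0.08, the polymerase alpha subunit Pola1 by 0.05 and the primase subunit Prim1 by -0.02, all with overlapping groups. Without control rat 1 only 3 of the 7 fork genes had a higher compost mean.

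All 4 genes of nucleotide supply had a higher compost mean, with a median of 0.20. Thymidylate synthase (Tyms), which makes the thymine nucleotide, was -0.19 and 0.30 in the controls and 0.63 and 0.57 in the compost rats. Its difference of 0.54 ± 0.23, a fold of 1.46, was the largest of the 45 genes, with an unadjusted p of 0.0732. The compost rats were close together and above both controls, and the controls were further apart from each other than control rat 2 was from the compost rats. Without control rat 1 the Tyms difference was 0.30. The small ribonucleotide reductase subunit Rrm2 differed by 0.20 ± 0.20, thymidine kinase (Tk1) by 0.21 ± 0.23 and the large subunit Rrm1 by 0.11 ± 0.26. Of these only Rrm2 had groups that did not overlap, and its other probe differed by -0.02 ± 0.17 with overlap.

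Genes of mitotic entry were higher in the compost mean in 6 of 6 cases, with a median of 0.20, and in each of them control rat 1 was lowest. Cdk1, the kinase that starts mitosis, was 4.04 and 4.42 in the controls and 4.50 and 4.49 in the compost rats, a difference of 0.27 ± 0.21. The compost rats were nearly equal, and control rat 2 was much closer to them than to control rat 1, so that the difference without control rat 1 was 0.08. Its partner cyclin B1 (Ccnb1) was 2.87 and 2.96 in the controls and 2.95 and 3.17 in the compost rats, a difference of 0.15 ± 0.19 with overlapping groups. The transcription factor Foxm1, which acts on mitotic promoters, differed by 0.28 ± 0.24, with the compost rats above the controls, and by 0.03 without control rat 1. The kinase Plk1 was 3.27 and 3.29 in the controls and 3.73 and 3.32 in the compost rats, a difference of 0.25 ± 0.22. Only compost rat 1 was clearly high for this Plk1 probe, and the difference without that rat was 0.04. The other Plk1 probe was 1.68 and 2.07 in the controls and 2.17 and 2.03 in the compost rats. Its difference was 0.22 ± 0.22 with overlapping groups, and there control rat 1 was the low array. Cyclin B2 (Ccnb2) differed by 0.14 and the centrosome kinase Nek2 by 0.06.

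Genes of chromosome structure and the centromere did not share a direction: 3 of 5 had a higher compost mean. The kinetochore protein Cenpf was -1.86 and -1.51 in the controls and -2.12 and -2.22 in the compost rats, a difference of -0.49 ± 0.21 with the lowest unadjusted p of all 45 genes, 0.0707. Both compost rats were below both controls, and the difference was negative whichever array was left out, from -0.66 without control rat 1 to -0.31 without control rat 2. Survivin (Birc5), of the chromosomal passenger complex, was 1.94 and 2.58 in the controls and 2.49 and 2.75 in the compost rats, a difference of 0.36 ± 0.28. Control rat 1 was the only low array for Birc5, and the difference without it was 0.04. Other passenger complex members gave 0.23 ± 0.31 for Aurkb and -0.13 ± 0.19 for Cdca8. Topoisomerase II alpha (Top2a), which untangles chromosomes, was 3.21 and 3.63 in the controls and 3.53 and 3.52 in the compost rats. Its difference of 0.11 ± 0.22 became -0.10 without control rat 1.

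The spindle checkpoint and exit genes were higher in the compost mean in 6 of 6 cases, with a median of 0.15, and control rat 1 was the lowest array for all 6. The checkpoint kinase Ttk was 1.37 and 1.67 in the controls and 1.84 and 1.77 in the compost rats, a difference of 0.28 ± 0.20. The groups did not overlap for Ttk, but its other probe differed by -0.18 ± 0.18. Bub1b (0.22 ± 0.20) and Cdc20 (0.17 ± 0.18), the activator of the anaphase-promoting complex, also had compost rats above controls. The other kept probe of Bub1b differed by 0.16 ± 0.21 with overlapping groups. Bub1, Bub3 and the ubiquitin-conjugating enzyme Ube2c differed by 0.14, 0.03 and 0.13, with overlapping groups and, without control rat 1, with values from -0.05 to -0.01.

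Of the 4 spindle and cytokinesis genes, 2 had a higher compost mean. Prc1, which bundles midzone microtubules, was -1.76 and -2.37 in the controls and -1.77 and -1.67 in the compost rats, a difference of 0.34 ± 0.27. For Prc1 the low array was control rat 2, and control rat 1 was level with compost rat 1. Tpx2, an activator of Aurora A, differed by 0.22 ± 0.19 without overlap. The motor Kif11 and the spindle protein Nusap1 differed by -0.05 ± 0.19 and -0.02 ± 0.32, and the sign of Nusap1 turned with quantile normalization (0.01). A dimmer probe of Kif11, well above background on only 2 arrays, differed by -1.18 ± 0.87, with compost rat 2 lowest at -7.53.

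The 3 genes of both or earlier phases showed no common direction. Cyclin D1 (Ccnd1), the growth-factor-regulated G1 cyclin, was 4.07 and 4.36 in the controls and 3.93 and 4.48 in the compost rats, a difference of -0.01 ± 0.27 that was 0.01 with normexp background correction. Cdk2 was 1.49 and 1.77 in the controls and 1.54 and 1.63 in the compost rats, a difference of -0.04 ± 0.20. Cyclin A2 (Ccna2), which serves S phase and mitosis, was 1.68 and 2.09 in the controls and 2.09 and 2.06 in the compost rats, a difference of 0.19 ± 0.22. The groups overlapped for all 3. For Ccna2, 3 arrays were level and control rat 1 was low.

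**Figure D3:**
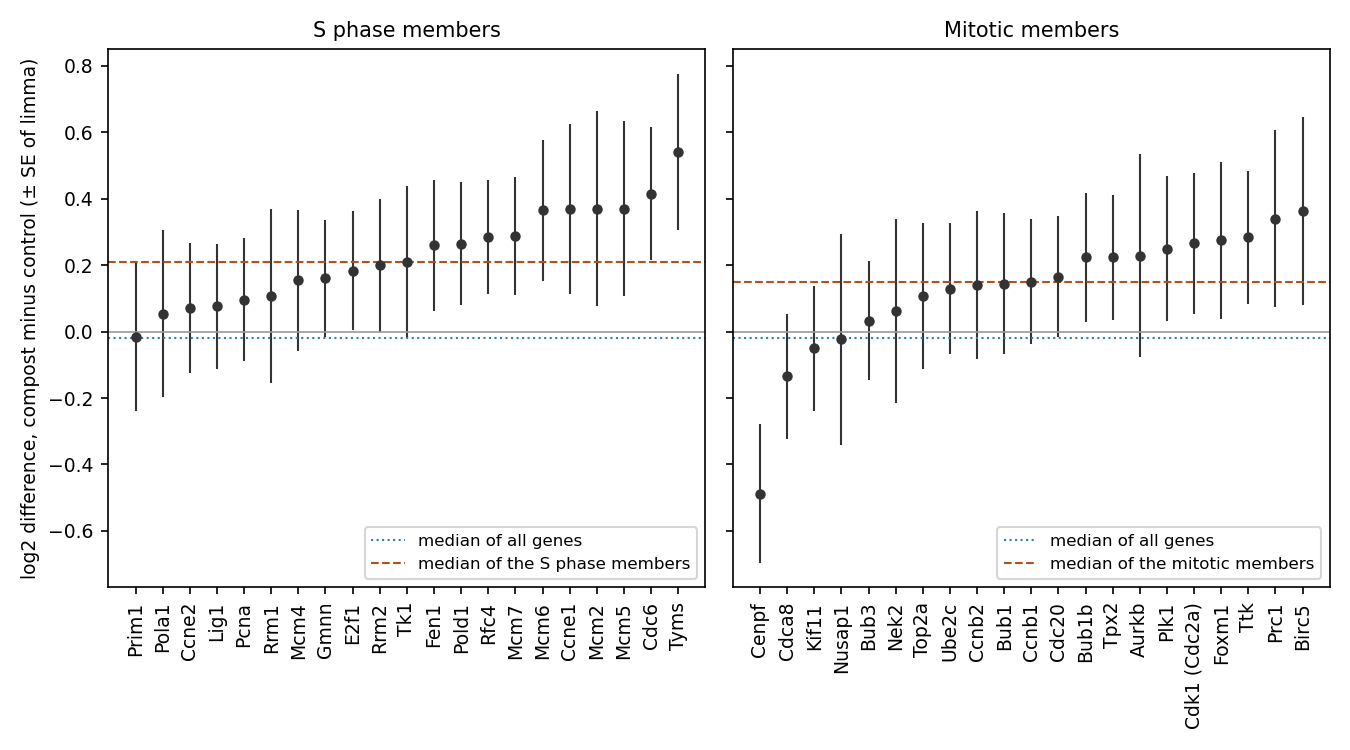
Log2 difference, compost minus control, with its limma standard error (bars; n = 2 arrays per group) for the 21 S phase and the 21 mitotic members, each sorted by the difference. The dashed line is the median of the class (0.21 for S phase, 0.15 for mitotic) and the dotted line the median of all genes (-0.02); Tyms and Cenpf stand at the ends.

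As classes, S phase genes had a median difference of 0.21 and mitotic genes of 0.15. The compost mean was higher for 20 of 21 S phase genes and for 17 of 21 mitotic genes. Groups did not overlap for 11 of 21 S phase genes, all with compost above, and for 8 of 21 mitotic genes, 7 with compost above and 1 below, against 12.7% of all genes above and 15.2% below. With quantile normalization the mitotic counts were 4 above and 2 below, against 14.5% and 13.9% of all genes, and with normexp background correction 9 and 2, against 11.8% and 16.5%. The S phase counts were 12 above and 0 below with either. With scaling to the median of the kept probes, the S phase counts were 10 and 0 and the mitotic counts 6 and 1. The shares of all genes were then 12.0% and 14.7%. The difference between the 2 medians was 0.06, against a spread between arrays of the same group of 0.10 (SD), so the classes were not separated beyond the spread between rats. The S phase median minus the mitotic median, each relative to the genes' means, was 0.05 and -0.12 in the control rats and -0.03 and 0.08 in the compost rats.

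Without control rat 1 the S phase median was 0.14, with 14 of 21 genes higher, and the mitotic median was -0.01, with 10 of 21 higher. From control rat 1 to control rat 2, 19 of 21 S phase genes and 20 of 21 mitotic genes were higher, with medians of 0.21 and 0.29, against 55.1% of all genes. From control rat 2 to compost rat 1 the counts were 17 of 21 S phase genes and 12 of 21 mitotic genes, with medians of 0.16 and 0.04, against 42.2% of all genes. From control rat 2 to compost rat 2 they were 14 of 21 and 11 of 21, with medians of 0.12 and 0.02, against 51.6% of all genes. The step between the 2 control rats was as large as the group difference in both classes. No test of S phase against mitotic genes was made, since the genes of a class share the same 4 rats.

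**Figure D4:**
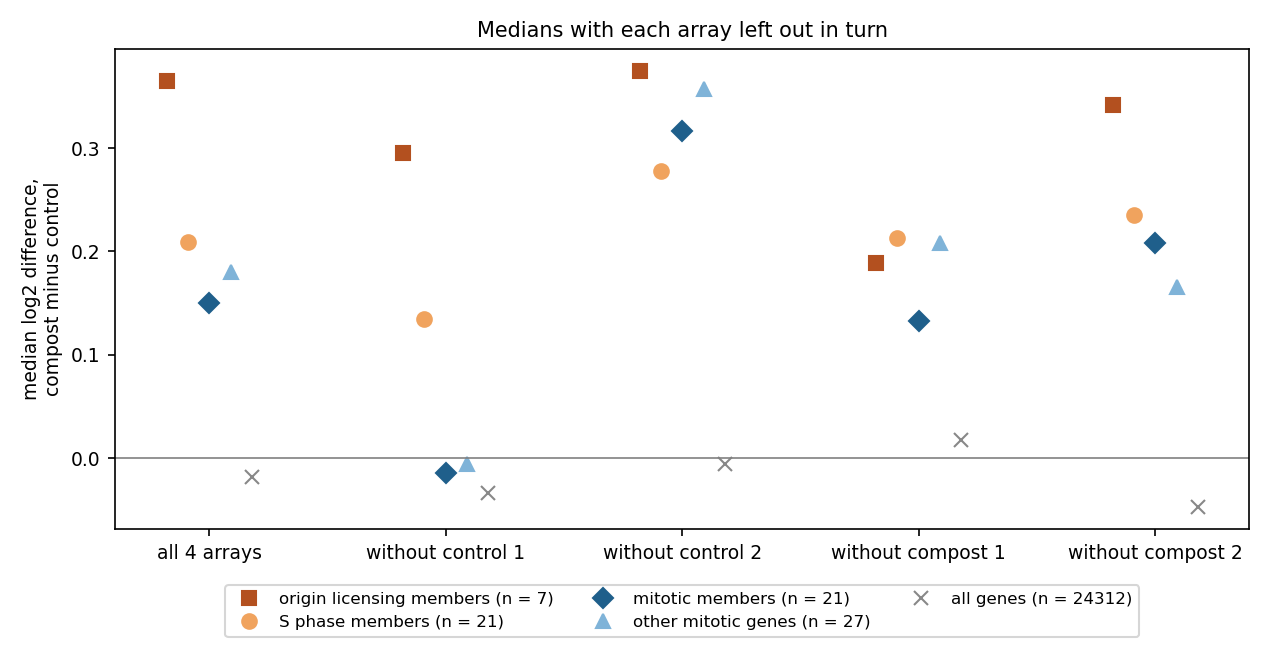
Median log2 difference, compost minus control, with all 4 arrays and with each array left out in turn, for the 7 origin licensing genes, the 21 S phase genes (which include them), the 21 mitotic genes, 27 other mitotic genes and all 24312 genes. Without control 1 the mitotic medians are at or just under 0 (-0.01), while licensing genes are at 0.29 and S phase genes at 0.14.

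Within the S phase class, the 9 genes with an E2F motif in the promoter window had a median difference of 0.28, and 8 of them had a higher compost mean. The 7 genes with a promoter but no such motif had a median of 0.26, and all 7 had a higher compost mean. Both compost rats lay above both controls for 6 of the 9 and 2 of the 7, against 12.7% of all genes. The 13 mitotic genes with both a CHR and an NF-Y box had a median of 0.15, with 9 of 13 higher, and the other 4 had a median of 0.10, with 4 of 4 higher. This grouping was made after the values were seen and was not tested.

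Several probes bore on how far a single value can be read. The 45 genes had 66 probes, of which 65 were kept and 64 were well above background on all 4 arrays. Just inside the filter was the second probe of Kif11, well above background on 2 arrays. The probe left out was the third probe of Bub1b, well above background on no array. Of 19 genes with more than 1 kept probe, 14 had probes with the same sign and 5 did not, namely Ttk, Rrm2, Mcm4, Prim1 and Ccnd1. A gene is given here by its brightest kept probe.

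Of the members without a probe of their own name, 5 could be found under older names or through the probe description, a search that was partly added after the data were seen. Mcm3, a further helicase subunit, had 2 probes. They read 1.81 and 1.89 in the controls and 2.23 and 2.35 in the compost rats, and -0.79 and -0.64 against -0.12 and -0.29. The differences were 0.44 ± 0.18 and 0.51 ± 0.19, with compost above control in both and unadjusted p-values of 0.0614 and 0.0452 in limma's fit (adjusted 1.00). Cdt1 differed by 0.20 ± 0.21 and Aurka by 0.17 ± 0.18, both without overlap. Cenpa, the centromeric histone, differed by 0.35 ± 0.32 with overlap. The 2 probes described as Mki67, the Ki-67 proliferation antigen, differed by 0.25 ± 0.24 and -0.14 ± 0.23, both with overlap.

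Further genes of these pathways were read from lists, and 0 of them passed limma's test in either direction. Of 29 other replication genes measured (of 43 listed), 22 had a higher compost mean, with a median of 0.11. Those with the lowest p were the chromatin assembly subunit Chaf1b (0.31 ± 0.18), the origin recognition subunit Orc4 (-0.30 ± 0.20) and the single-strand binding subunit Rpa2 (0.25 ± 0.18). Of 27 other mitotic genes (of 60 listed), 26 had a higher compost mean, with a median of 0.18, which became 13 of 27 with a median of -0.01 without control rat 1. The lowest p there belonged to the spindle protein Tacc3 (0.51 ± 0.23), the kinetochore protein Kntc1 (0.39 ± 0.22) and the Cdk-activating phosphatase Cdc25b (0.39 ± 0.23).

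Among 15 other G1/S and E2F pathway genes (of 24 listed), 9 had a higher compost mean, with a median of 0.07. Mycn, a growth regulator, had no control array well above background and passed the filter only through the compost arrays. It was higher in compost by at least 1.60-fold, with a fitted difference of 0.72 ± 0.24 and an adjusted p of 1.00. For this bound, taken on the processed intensity, the calculation sets each dim array at no less than its lowest signal well above background. Mybl2, a MuvB partner, differed by 0.34 ± 0.23 and Cdk4 by 0.27 ± 0.19. The 22 inhibitors and arrest genes were split, with 14 higher and a median of 0.04, and both compost rats lay below both controls for 7 of them, against 15.2% of all genes, and above both for 3, against 12.7%. The Cdk inhibitor p27 (Cdkn1b) was 3.26 and 3.13 in the controls and 2.79 and 2.55 in the compost rats, a difference of -0.53 ± 0.19. The related inhibitor p57 (Cdkn1c) was 2.10 and 1.36 in the controls and 1.03 and 0.87 in the compost rats, a difference of -0.78 ± 0.30. Both compost rats lay below both controls for these inhibitors, with adjusted p-values of 1.00 in limma's fit. Cyclin G1 (Ccng1), a p53 target, differed by 0.50 ± 0.25.

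Markers of the cell types in the tissue were read on the same arrays. For the 14 absorptive enterocyte markers measured, control rat 1 was highest for 12, and the medians relative to each gene's mean were 0.49 and 0.13 in the controls and -0.56 and 0.00 in the compost rats. Their summed level was 2271 to 2645 in the controls and 1631 to 2159 in the compost rats on the linear scale, relative to the 75th percentile. Lactase (Lct) and intestinal alkaline phosphatase (Alpi) had no compost array well above background and passed the filter only through the control arrays. The mean of the 2 controls exceeded the bound by at least 4.01-fold for Lct and 5.34-fold for Alpi. The controls were unequal, at -2.99 and -4.20 for Lct and at -1.87 and -4.50 for Alpi. For the 6 Paneth cell markers, control rat 1 was lowest for 5, with medians of -0.59 and 0.32 in the controls and 0.28 and 0.02 in the compost rats, and Reg3g was 5.14 in control rat 1 against 7.87 to 8.11 elsewhere, while Pla2g2a differed by 0.57 ± 0.50. The 9 stem cell and crypt markers were -0.16 and 0.15 in the controls and 0.19 and -0.14 in the compost rats, with Axin2 at -0.56 ± 0.34 and Prom1 at 0.45 ± 0.30. Control rat 1 therefore had the lowest Paneth cell markers, the highest enterocyte markers and the lowest values for most cell cycle genes. The part of the cell types of the tissue in the cell cycle differences was not tested.

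The B cell and follicle lists had median differences of 1.31 and 1.04, which were 0.63 and 0.75 with normexp background correction. Of their markers, 1 of 8 and 2 of 9 had no control array well above background and passed the filter only through the compost arrays, among them Ccr7, the gene at the follicle median. The 8 B and plasma cell markers had medians of -0.65 and -0.61 in the controls and 0.24 and 0.67 in the compost rats, a summed level of 4.28 to 6.10 against 9.42 to 15.0. Cd79b differed by 2.43 ± 0.64 and Cd22 by 1.37 ± 0.30, the latter with only 1 control array well above background. The 9 lymphoid follicle markers had medians of -0.45 and -0.42 against -0.03 and 0.70, a summed level of 8.96 to 10.2 against 12.2 to 20.0, with Ccr6 at 1.13 ± 0.19 and Ccr7 at least 1.84-fold higher in compost. The 8 T cell markers had medians of 0.61 and -0.57 against -0.22 and 0.29, with Cd2 at 1.60 and Cd6 at -0.36. For Cd2 only 1 control array was well above background. The medians of the B cell and follicle markers were about equally low in both control rats. The median of the 45 cell cycle genes was -0.19 in control rat 1 and 0.06 in control rat 2. The part of lymphoid cells in the cell cycle differences was not tested.

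**Figure D5:**
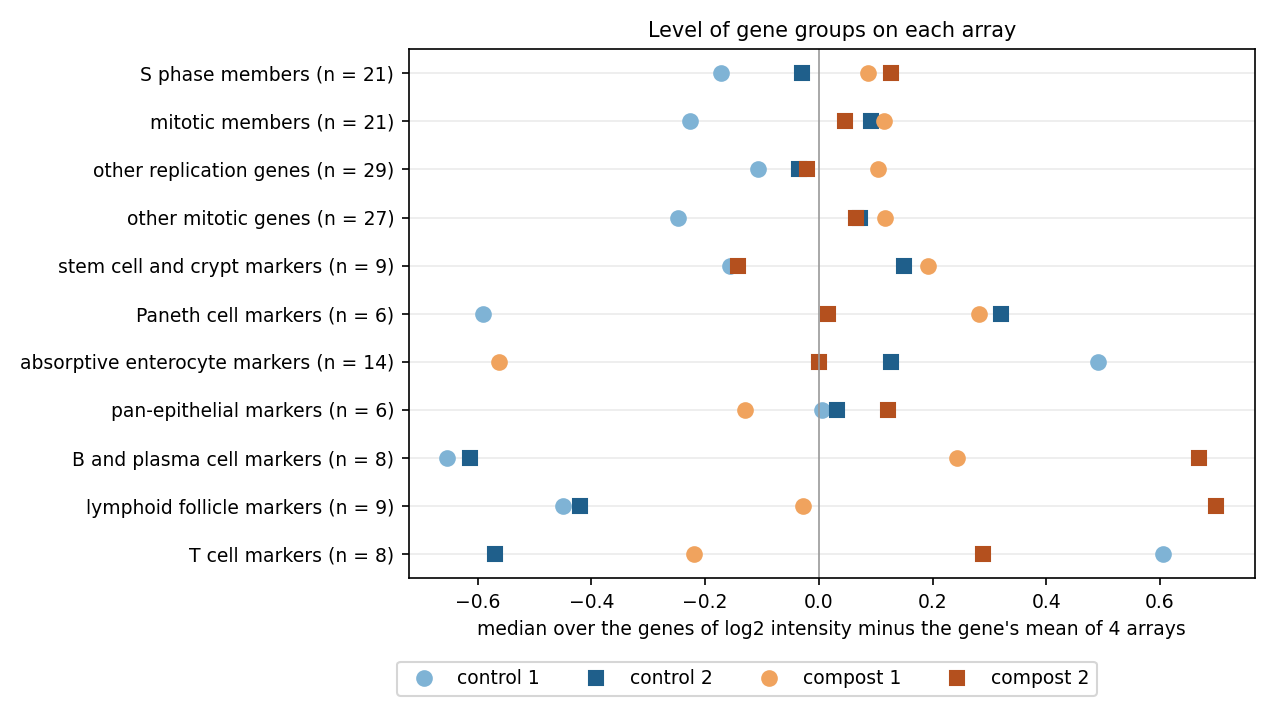
Median over the genes of a group of the log2 intensity minus the gene's mean of the 4 arrays (horizontal axis), one point per array, for the S phase and mitotic members, other genes of their pathways and marker lists of cell types. Control 1 is lowest for S phase (-0.17), mitotic (-0.23) and Paneth cell (-0.59) genes and highest for enterocyte markers (0.49), and both controls are low for B and plasma cell markers (-0.65 and -0.61).

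The remaining lists had median differences from -0.02 to 0.56. The 12 macrophage and dendritic cell markers had a median difference of 0.56, with Fcgr2b at 1.17 and Fcgr3a at 1.90. Compost rat 1 was highest for 10 of the 12, and their median was 0.09 without that rat and 1.09 without compost rat 2. The 6 goblet cell markers had a median of 0.20 (Gcnt3 0.78, Agr2 0.23), which was -0.01 without control rat 2. The 3 red blood cell markers had a median of 0.38 (Hbb 0.63, Alas2 0.38), which was 1.14 without control rat 1 and -0.37 without control rat 2. The 6 smooth muscle markers had a median of 0.12 (Actg2 0.15, Tagln 0.19), which was -0.14 without compost rat 1 and -0.12 without control rat 1. The median was 0.06 for the 9 immediate early and heat shock genes (Fosb -0.28, Egr1 0.42), and -0.07 without compost rat 2. No marker passed the test. The 6 pan-epithelial markers had a median of -0.02 (Elf3 0.22, Cldn7 0.16) and were at 0.01 and 0.03 in the controls and -0.13 and 0.12 in the compost rats, with compost rat 1 the lowest.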

How the data were processed

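RNA from the small intestine of 4 rats was measured on 4 one-colour Agilent arrays. The deposited scanner files held spot intensity on a linear scale from Agilent Feature Extraction 9.1.3.1, corrected for background and spatial trend per the file headers, with flags for signal well above background. The authors also deposited a value table, which matched this intensity to within 0.497%, with column medians of 80.2, 79.4, 102 and 73.9 and no centring. It served as an alternative.

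Control and outlier spots were left out, spots of a probe were averaged as log2, and the array's 75th percentile was subtracted. Of 41012 probes, 28417 were well above background on at least 2 of 4 arrays. limma 3.58.1 (R 4.3.3; lmFit, eBayes, two-sided, Benjamini-Hochberg over all these probes, threshold 0.05) was tested on simulated data first. A gene was given by its brightest kept probe. Replicates are separate rats per the labels, and their number limits the precision. The labels do not state that replicate numbers pair the rats. Arrays of the same number did not deviate together (r = -0.04 over kept probes), which cannot show whether the rats were paired. The members and gene lists were chosen with earlier results of these data known, so lists are described by counts and medians without a test. Per-array values were given for the 5 S phase and 5 mitotic genes with the lowest p and for 7 fixed others (Ccnd1, Cdk2, Ccna2, Pcna, Mcm2, Top2a, Ccnb1). Mcm5, E2f1, Plk1, Cdkn1b, Cdkn1c and Mcm3 were given per array after their values were seen. For each pathway list the 3 genes, and for each marker list the 2 genes, with the lowest p were named. Alternatives were the background correction, the scaling, the filter, the value table, the variance model, the probe and name of a gene, the class of 5 genes, each array left out and the replicate number as a block.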

Additional observations from a re-analysis of the deposited data

How the results depend on the processing

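The number of probes called was 0 in limma's fit and 1 with normexp background correction, and it ranged from 0 to 2 with an array left out, the 2 arising without control rat 2. The S phase median was positive in each setting run, from 0.14 to 0.28 with an array left out. The mitotic median ranged from -0.014 (without control rat 1) to 0.316 (without control rat 2), and the S phase minus mitotic median from -0.04 to 0.15. Of the genes given per array, signs turned with an array left out for Ccnd1 (-0.28 to 0.26), Cdk2 (-0.18 to 0.10), Ccna2 (-0.011 to 0.40), Pcna (-0.0083 to 0.20) and Top2a (-0.10 to 0.32), and for Ccnd1 with normexp (0.013). Among the other members the sign also turned for Tk1, Rrm1, Lig1, Pola1, Prim1, Mcm4, Ccne2, Aurkb, Bub1, Bub3, Ube2c, Ccnb2, Kif11, Nek2 and Nusap1. The count of members higher in compost was 38 of 45 with all arrays and from 24 (without control rat 1) to 43 (without control rat 2) with an array left out. The cause was not tested. With the replicate block, 0 probes were called and the medians were 0.21 and 0.15, as without it. Arrays give no count depth, and 64 of the 66 member probes were well above background on all 4 arrays.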
